A study of Caenorhabditis elegans with 16 samples.

Results

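The lysozyme genes described here are 10 genes of the nematode Caenorhabditis elegans, 9 of the lys family (lys-1, lys-2, lys-3, lys-4, lys-5, lys-6, lys-7, lys-8 and lys-10) and ilys-3. They were chosen by their symbols, with earlier results of these data known, and are 10 of the 46904 genes in the count table. The RNA was poly(A)-selected from populations of whole young adult worms of strain PP3189, with 16 libraries in 4 conditions of 4 independent biological replicates each. In every condition, controls included, the worms carried the integrated array hhIs251, in which the myo-3 promoter drives a FLAG-tagged channelrhodopsin with the substitutions C128S and H134R in body wall muscle. This light-gated cation channel needs the cofactor all-trans retinal (ATR), and the array is a single integrated line. The light plus ATR worms were fed 0.1 mM ATR from a larval stage on. As young adults they were exposed to pulses of blue light (455 nm, 5 s each, 20 min of darkness after each) for 8 h at 18 °C, so that their body wall muscle was repeatedly contracted. The light minus ATR worms had the same pulses without ATR, the dark plus ATR worms had 0.1 mM ATR in the dark, and the dark minus ATR worms had neither. The design asks how the whole-worm transcriptome responds to repeated muscle contraction. The 3 other conditions are controls for light and for ATR alone. Worms ruptured by the treatment were removed at collection, so the light plus ATR libraries hold only worms left intact. The part of this selection in the values was not tested. The paper could not exclude a part of prolonged calcium influx in some of the cellular changes it saw. It also states that laboratory light at collection can trigger the channel.

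Lysozymes are enzymes that cut the peptidoglycan of bacterial cell walls. In C. elegans, which feeds on bacteria, the protist-type lysozymes (lys genes, related to those of amoebae) and the invertebrate-type lysozymes (ilys genes) take part in the digestion of food and in defence against ingested bacteria, and many are expressed in the intestine. Among the best studied, lys-1 was linked to resistance to the pathogen Serratia marcescens, lys-7 is a target of the insulin pathway factor DAF-16, lys-8 is controlled by the TGF-beta-like ligand DBL-1, and ilys-3 acts in the pharynx and intestine.

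All 10 genes passed the filter on low counts, and did so also with the light plus ATR libraries left out. They were tested among 15044 genes with edgeR's quasi-likelihood test, and p-values were adjusted by the Benjamini-Hochberg method over all of these. A gene is called changed at an adjusted p under 0.05, and fold changes are given as log2 with their standard error (SE). The libraries held 19264325 to 32374032 counts on genes. Levels are given in CPM, which are counts scaled to the library size after TMM scaling, a correction for libraries that differ in composition.

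Of the 10 genes, 6 lie in 2 clusters of 3. On the WBcel235 build, lys-1 (WBGene00003090) lies on chromosome V, bases 10277904 to 10279056, on the plus strand. It is followed by lys-2 (WBGene00003091) at 10280307 to 10281474 and lys-3 (WBGene00003092) at 10282100 to 10283544, both on the minus strand. The gaps are 1250 bases between lys-1 and lys-2 and 625 bases between lys-2 and lys-3. On chromosome IV, lys-4 (WBGene00003093) spans bases 11621429 to 11623174, lys-5 (WBGene00003094) 11624252 to 11625582 and lys-6 (WBGene00003095) 11626910 to 11627947, all on the minus strand, with gaps of 1077 and 1327 bases. No other protein-coding gene starts between neighbours in either cluster. The other members are not in these clusters: lys-7 (WBGene00003096; V, 3481432 to 3482600, minus), lys-8 (WBGene00003097; II, 5586178 to 5587651, plus), lys-10 (WBGene00003099; IV, 8332826 to 8333518, plus, 1 exon) and ilys-3 (WBGene00016670; IV, 2464456 to 2465443, plus). On the same strand as ilys-3, 2234 bases away and with no other coding start between, lies ilys-2, which was not tested. Each member is annotated with 1 transcript. The exons of lys-8 share 38 bases with C17G10.13 on the opposite strand, and the libraries were prepared with a stranded kit.

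**Figure D1:**
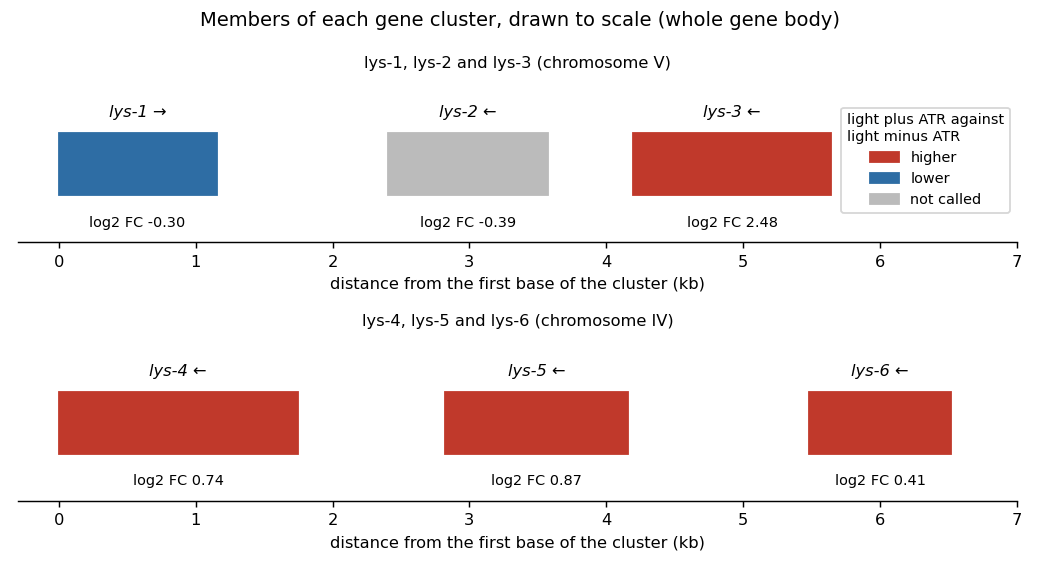
The 2 lysozyme gene clusters drawn to scale, with the distance from the first base of each cluster in kb on the x axis and an arrow for the strand. Boxes are whole gene bodies, coloured by the call for ATR under light (plus against minus ATR), with the log2 fold change below: the lys-4, lys-5 and lys-6 boxes are all higher, while lys-1 is lower, lys-2 is not called and lys-3 is higher (2.48).

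Counts of lys-4, lys-5 and lys-6 were not separate. The deposited counts of these genes were mostly not whole numbers, while their sum was whole (within 0.005) in 16 of 16 libraries, so reads that match more than one of these 3 genes had been divided among them. The counts of the other 7 members were whole in all 16 libraries. Single values of lys-4, lys-5 and lys-6 are therefore uncertain in how the reads were split, and tests of their sums are given with them below.

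The 10 genes differed widely in level, and the ranks below are among these 10. In light plus ATR worms lys-4 stood alone at the top with 453 ± 36.2 CPM per kb of exon (mean ± SD, n = 4), followed by lys-7 with 293 ± 36.1, lys-1 with 213 ± 35.8, lys-8 with 158 ± 7.60 and lys-2 with 30.1 ± 11.3 CPM per kb. The lower members in light plus ATR were lys-6 with 10.9 ± 1.23, lys-5 with 9.58 ± 0.629, ilys-3 with 5.89 ± 1.03, lys-3 with 3.28 ± 0.911 and lys-10 with 1.10 ± 0.369 CPM per kb. In untreated worms (dark minus ATR), lys-7 with 287 ± 18.0, lys-4 with 287 ± 14.6 and lys-1 with 263 ± 12.5 CPM per kb were at the top, before lys-8 with 159 ± 4.11 and lys-2 with 36.0 ± 3.39 CPM per kb. Further down were lys-6 with 8.26 ± 1.66, lys-5 with 5.91 ± 0.736, ilys-3 with 2.61 ± 0.716, lys-10 with 1.07 ± 0.411 and lys-3 with 0.491 ± 0.229 CPM per kb. Neighbours that lay closer than the sum of their SDs were lys-6 and lys-5 in both conditions, and in dark minus ATR also lys-7 and lys-4, lys-4 and lys-1, and lys-10 and lys-3. By mean level over all 16 libraries, lys-4, lys-7, lys-1 and lys-8 were between the 95.1 and 97.8 percentiles of the tested genes, and lys-3 and lys-10 were at the 20 and 18.5 percentiles. The share of lys-4 in the summed level per kb of the 10 genes was 37.5 to 40.0% in light plus ATR, 26.0 to 27.3% in light minus ATR, 27.1 to 28.7% in dark plus ATR and 26.8 to 28.2% in dark minus ATR.

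**Figure D2:**
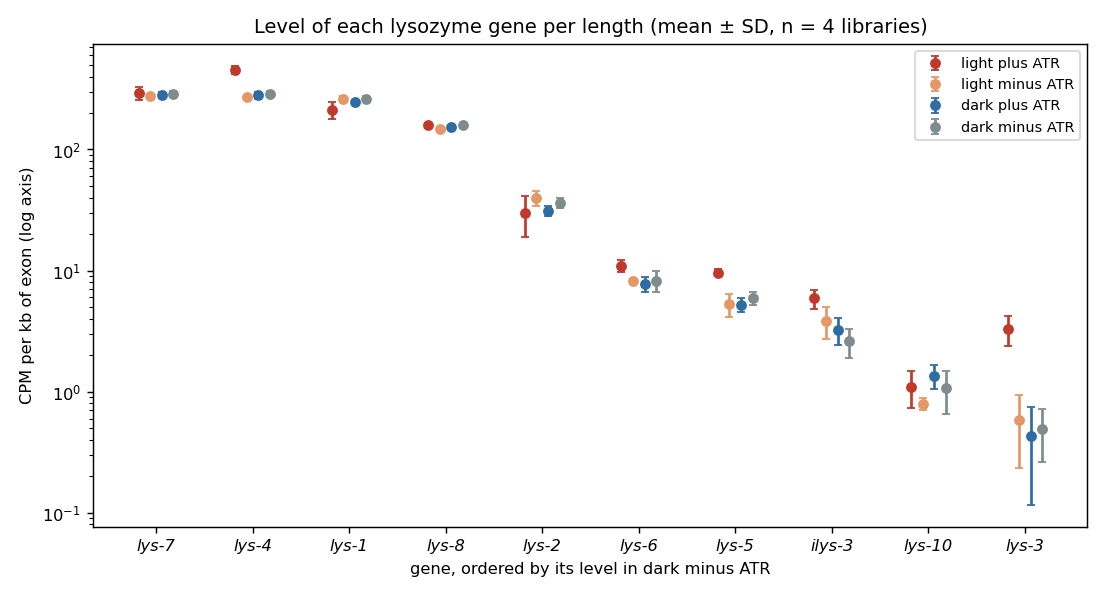
Mean level of each lysozyme gene in CPM per kb of exon (log axis, error bars ± SD, n = 4 libraries) in the 4 conditions, with genes ordered by their level in dark minus ATR. The levels span from 287 CPM per kb (lys-7) to 0.491 CPM per kb (lys-3) in dark minus ATR, and the light plus ATR point stands highest for lys-4, lys-6, lys-5, ilys-3 and lys-3, and, by less than the SDs, for lys-7.

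With ATR under blue light, lys-3, lys-4, lys-5 and lys-6 rose and lys-1 fell against light minus ATR. The other 5 members (lys-2, lys-7, lys-8, lys-10 and ilys-3) were not called. Thus 4 of 10 were higher and 1 was lower, beside 16.3% of all tested genes called in this comparison (8.39% higher and 7.9% lower). The median log2 fold change of the 10 genes was 0.44, against 0.01 over all tested genes. With libraries scaled by their totals 6 members were higher and none lower, and with ERCC spike-in scaling 4 were higher and none lower. The libraries came from whole worms, so fewer cells of a type and less RNA per cell cannot be told apart in any of these values.

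The gene with the largest change was lys-3. Its counts were 122, 75, 62 and 113 in the light plus ATR libraries, against 16, 18, 23 and 3 in light minus ATR, 9, 9, 32 and 8 in dark plus ATR and 8, 11, 18 and 10 in dark minus ATR. In CPM these were 4.67, 3.36, 2.39 and 4.29 in light plus ATR, against 0.541, 0.892, 1.03 and 0.153 in light minus ATR, 0.297, 0.354, 1.01 and 0.274 in dark plus ATR and 0.361, 0.591, 0.899 and 0.351 in dark minus ATR. All 4 light plus ATR libraries lay above all 12 others, and the 12 control libraries overlapped across their conditions. The log2 fold change of lys-3 was 2.48 (SE 0.43, edgeR, adjusted p = 0.000791) against light minus ATR, or 5.59-fold, with a 95% interval of 1.56 to 3.40 on the log2 scale. Against dark plus ATR it was 2.89 (adjusted p = 0.000177) and against dark minus ATR 2.77 (adjusted p = 0.000243). These comparisons share the light plus ATR libraries. With any 1 of the 16 libraries left out, lys-3 was still called in each of them, at 2.19 to 2.78 against light minus ATR.

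Its neighbours did not move with it. lys-1 had 171, 178, 234 and 233 CPM in light plus ATR, against 248, 234.6, 262 and 260 CPM in light minus ATR, 226, 243, 236 and 242 CPM in dark plus ATR and 242, 249, 248 and 270 CPM in dark minus ATR. The light plus ATR libraries of replicates 1 and 2 were below all 12 control libraries, while those of replicates 3 and 4 lay within the range of the controls. lys-1 fell by 0.30 on the log2 scale (SE 0.09, edgeR, adjusted p = 0.0266) against light minus ATR and by 0.31 (adjusted p = 0.0113) against dark minus ATR. The fall of 0.21 against dark plus ATR was not called (adjusted p = 0.0762), though DESeq2 (adjusted p = 0.021) and scaling by intestine markers (adjusted p = 7.56e-05) called it, as did leaving out light plus ATR replicate 3 (adjusted p = 0.0169) or 4 (adjusted p = 0.0164). The call against light minus ATR was lost without light plus ATR replicate 2 (adjusted p = 0.0598), light minus ATR replicate 3 (0.0586) or light minus ATR replicate 4 (0.0579). It was also lost under library totals (adjusted p = 0.0859), under ERCC scaling (0.0927) and with only the compared libraries in the fit (0.117). Against dark minus ATR the call of lys-1 was lost under library totals (adjusted p = 0.0741) and ERCC scaling (0.26).

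The middle gene of this cluster, lys-2, had 22.6, 16.7, 40.3 and 32.6 CPM in light plus ATR, against 30.8 to 43.4 CPM in light minus ATR, 26.2 to 32.6 CPM in dark plus ATR and 30.3 to 37.9 CPM in dark minus ATR. Its light plus ATR libraries overlapped with those of each control, and its log2 fold change against light minus ATR was -0.39 (SE 0.21, 95% interval -0.85 to 0.08, adjusted p = 0.241). As in lys-1, its libraries of replicates 1 and 2 were the low ones in light plus ATR. The summed CPM of all 10 lysozyme genes shows the same split, with 932 and 929 for replicates 1 and 2 and 1126 for each of replicates 3 and 4. The summed CPM of 13 intestine markers was 1622 and 1633 in the light plus ATR libraries of replicates 1 and 2 and 1786 and 1706 in those of replicates 3 and 4. That of 6 hypodermis markers was 3668 and 3750, then 4110 and 4666. Sperm markers had the same order (202 and 209.5, then 248 and 321.5), as had, by little, pharynx markers (538 and 537, then 541 and 550). Body wall muscle (5333 and 5419, then 5339 and 5542) and neuron markers (488 and 500.5, then 499 and 505) were not split in this way. Germline and oocyte markers went the other way (11680 and 11510, then 11360 and 10610). The part of these levels in the split was not tested.

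Of the chromosome IV cluster, lys-4 had 329, 336, 381 and 383 CPM in light plus ATR, against 219, 206, 210 and 220 CPM in light minus ATR, 207, 216, 224 and 241 CPM in dark plus ATR and 211, 232, 238 and 223 CPM in dark minus ATR. The light plus ATR libraries lay above all 12 others with no overlap, those of replicates 1 and 2 below those of replicates 3 and 4, as in lys-1. The log2 fold change of lys-4 was 0.74 (SE 0.06, edgeR, adjusted p = 2.69e-09) against light minus ATR, or 1.67-fold, 0.69 (adjusted p = 8.05e-09) against dark plus ATR and 0.66 (adjusted p = 1.48e-08) against dark minus ATR.

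lys-5 is expressed at a much lower level per kb. It had 6.13, 6.67, 6.85 and 7.18 CPM in light plus ATR, against 3.52, 2.82, 4.68 and 3.67 CPM in light minus ATR, 2.94, 4.13, 3.77 and 3.83 CPM in dark plus ATR and 3.93, 4.73, 3.54 and 4.36 CPM in dark minus ATR. Again all 4 light plus ATR libraries were above the 12 others. Its log2 fold change was 0.87 (SE 0.14, edgeR, adjusted p = 0.000107) against light minus ATR, 0.87 (adjusted p = 6.78e-05) against dark plus ATR and 0.70 (adjusted p = 0.000541) against dark minus ATR. Leaving out any single library ended none of the calls of lys-4 or lys-5.

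The third gene of the cluster, lys-6, rose less. It had 7.62, 6.58, 8.32 and 8.51 CPM in light plus ATR, against 5.78, 5.95, 5.67 and 6.02 CPM in light minus ATR, 5.45, 4.52, 5.71 and 6.40 CPM in dark plus ATR and 5.64, 4.41, 7.24 and 6.15 CPM in dark minus ATR. The light plus ATR libraries were above those of light minus ATR and dark plus ATR, and 1 dark minus ATR library (7.24 CPM) was above the lowest of them. The log2 fold change was 0.41 (SE 0.13, edgeR, adjusted p = 0.0325) against light minus ATR, 0.49 (adjusted p = 0.00671) against dark plus ATR and 0.40 (adjusted p = 0.0174) against dark minus ATR. The call against light minus ATR was lost without light plus ATR replicate 1, 3 or 4 or light minus ATR replicate 1, 2 or 3 (adjusted p = 0.0548 to 0.0921). The call against dark minus ATR was lost without dark minus ATR replicate 2 or light plus ATR replicate 3 or 4 (adjusted p = 0.0518 to 0.0747).

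When the counts of lys-5 and lys-6 were added and tested as 1 feature, the log2 fold change against light minus ATR was 0.60 (SE 0.09, edgeR, adjusted p = 2.52e-05). That sum was whole in only 5 of 16 libraries, so it still depends on how reads shared with lys-4 were divided. For the sum of lys-4, lys-5 and lys-6, which does not depend on this division, it was 0.73 (SE 0.06, adjusted p = 2.46e-09). This sum is mostly lys-4, with 36073 counts in the light plus ATR libraries against 676 of lys-5 and 786 of lys-6. It therefore does not show whether lys-5 or lys-6 changed. Both sums were also called against dark plus ATR and dark minus ATR.

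**Figure D3:**
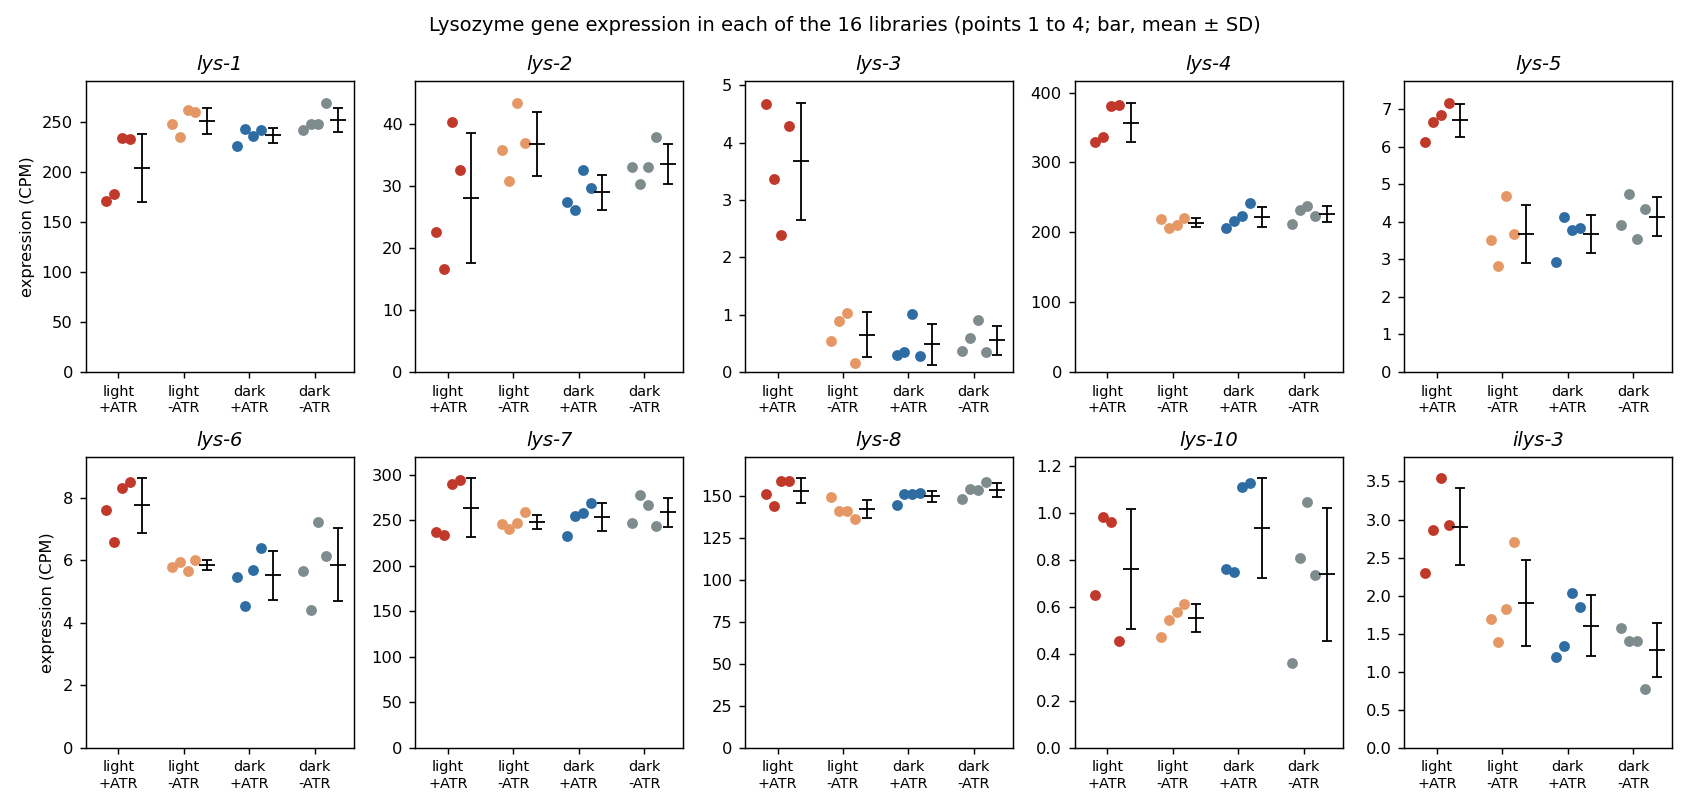
Expression of each lysozyme gene in every library (CPM, linear axes from 0), with 4 points per condition in the order of replicates 1 to 4 and a bar for the mean ± SD. For lys-3, lys-4 and lys-5 the 4 light plus ATR points lie above all 12 others. In lys-1 and lys-2 the first 2 light plus ATR points are low (171 and 178 CPM, and 22.6 and 16.7 CPM).

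The invertebrate-type gene ilys-3, whose product acts on ingested bacteria, had 2.30, 2.86, 3.54 and 2.92 CPM in light plus ATR, against 1.69, 1.39, 1.83 and 2.70 CPM in light minus ATR, 1.19, 1.34, 2.03 and 1.85 CPM in dark plus ATR and 1.58, 1.40, 1.40 and 0.773 CPM in dark minus ATR. Its light plus ATR libraries lay above all libraries in the dark, and 1 light minus ATR library (2.70 CPM) was above the lowest of them. The log2 fold change of ilys-3 was 1.19 (SE 0.24, edgeR, adjusted p = 0.000605) against dark minus ATR and 0.86 (adjusted p = 0.0077) against dark plus ATR, and both calls held with each library left out. Against light minus ATR it was 0.62 (95% interval 0.15 to 1.09, adjusted p = 0.0667), which was not called. It was called there without light minus ATR replicate 4 (adjusted p = 0.0198), light plus ATR replicate 1 (0.0484) or dark minus ATR replicate 4 (0.0435), with library totals (0.0371) and with only the compared libraries (0.0477).

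Of the abundant members, lys-7 and lys-8 were not called in any comparison. lys-7 had 237, 234, 290 and 294 CPM in light plus ATR, again with replicates 1 and 2 the low ones, against 240 to 259 in light minus ATR, 233 to 270 in dark plus ATR and 244 to 278 in dark minus ATR. The 95% interval of its log2 difference from light minus ATR was -0.06 to 0.23. lys-8 had 144 to 159 CPM in light plus ATR, against 137 to 150 in light minus ATR, 145 to 152 in dark plus ATR and 149 to 158 in dark minus ATR. Its log2 fold change against light minus ATR was 0.11 (95% interval 0.03 to 0.19, adjusted p = 0.069). This value was called under library totals (adjusted p = 0.00451) and without light plus ATR replicate 2 (0.0347) or light minus ATR replicate 1 (0.0436). Against dark plus ATR its value of 0.03 turned with the scaling, being called at 0.11 under library totals (adjusted p = 0.0495) and at -0.16 under intestine marker scaling (adjusted p = 0.0293). lys-10 had only 12 to 25 counts per library in light plus ATR and 8 to 35 in the others, and was not called in any comparison. Its log2 fold change against light minus ATR of 0.47 had a 95% interval of -0.18 to 1.11. Against dark plus ATR it was -0.31 (95% interval -0.89 to 0.27) and against dark minus ATR 0.05 (-0.57 to 0.67). These intervals leave room for a rise or a fall. The part of the low counts in their width was not tested.

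Against dark plus ATR, 5 of the 10 genes were higher (lys-3, lys-4, lys-5, lys-6 and ilys-3) and none lower, beside 27.7% of all tested genes called (16.2% higher and 11.6% lower). Against dark minus ATR the same 5 were higher and lys-1 was lower, beside 36.9% of all tested genes (20.4% higher and 16.5% lower). The median log2 fold change of the 10 genes was 0.27 and 0.23 in these comparisons, and 0.01 over all tested genes in each. Under intestine marker scaling 4 members were higher and 2 lower in both. Of the 10 genes, 3 (lys-3, lys-4 and lys-5) had all 4 light plus ATR libraries above all 12 others, as had 7.35% of the tested genes, and none had all of them below, as had 6.29%.

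**Figure D4:**
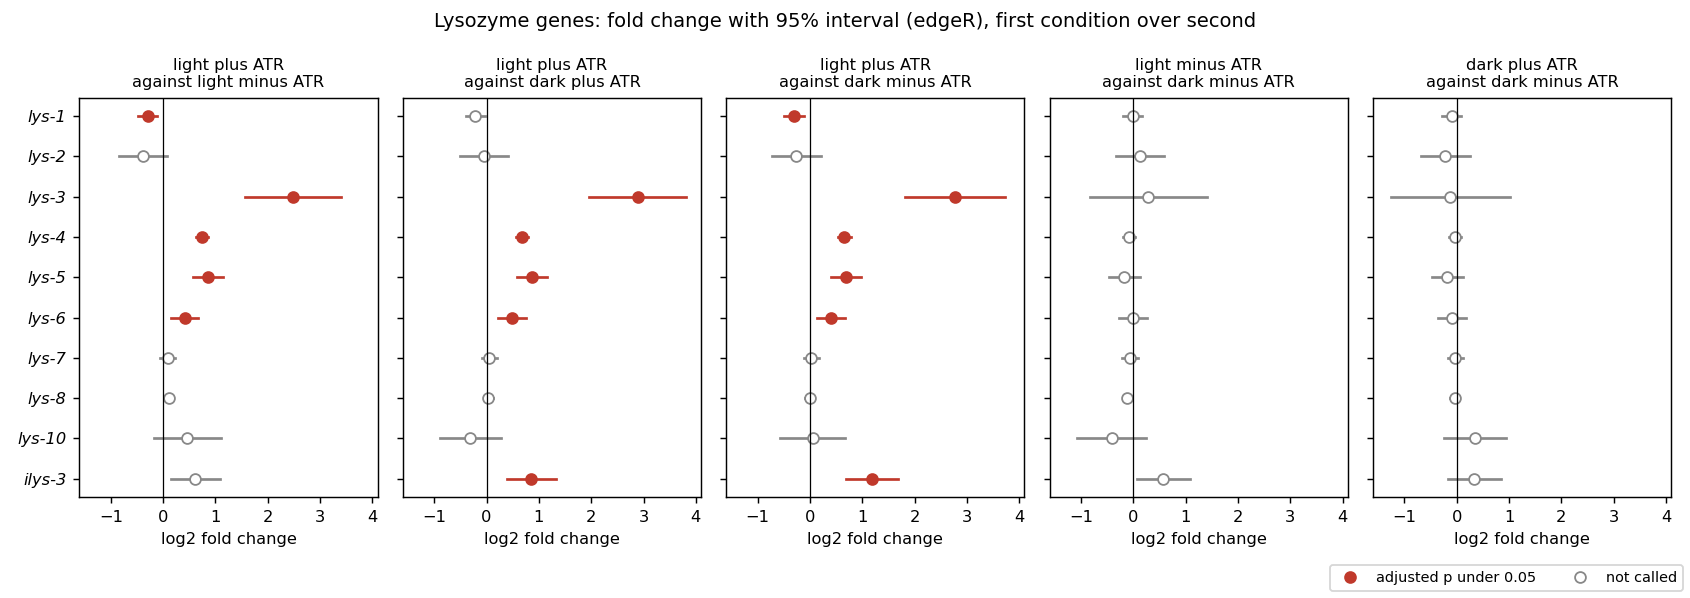
Log2 fold change of each lysozyme gene with its 95% interval in the 5 comparisons between conditions, the first-named condition over the second. Filled points have an adjusted p under 0.05: lys-3 to lys-6 in all 3 panels of light plus ATR, lys-1 and ilys-3 in 2 of them each, and no gene in the 2 panels that compare controls.

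Neither light without ATR nor ATR in the dark was followed by a called change of a lysozyme gene. In light minus ATR against dark minus ATR, edgeR called 0 of 10 genes, as did DESeq2 and limma-trend, and 2 had an unadjusted p under 0.05 (lys-8 at -0.11 and ilys-3 at 0.58). Of all tested genes edgeR called 0%, with 2012 at an unadjusted p under 0.05, while DESeq2 called 170 and limma-trend 2. In dark plus ATR against dark minus ATR, all 3 tools called 0 of 10 and none had an unadjusted p under 0.05, beside 0.0665% of all tested genes called (0.0332% higher and 0.0332% lower). For lys-3, the 95% interval of the log2 difference between light minus ATR and dark minus ATR was -0.84 to 1.41, which leaves room for changes of more than 2-fold. For lys-4 it was only -0.20 to 0.04.

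The interaction of light and ATR compares the effect of ATR under light with its effect in the dark. It was called for 3 of the 10 genes, all higher, beside 5.23% of all tested genes (2.58% higher and 2.65% lower). The ATR effect was larger under light by 2.60 in lys-3 (SE 0.70, edgeR, adjusted p = 0.0393), by 0.77 in lys-4 (SE 0.08, adjusted p = 7.97e-07) and by 1.04 in lys-5 (SE 0.20, adjusted p = 0.0016), all on the log2 scale. The interaction of lys-3 was lost in 10 of the 16 fits that leave out a library, at 2.27 to 2.77 (adjusted p = 0.0522 to 0.112). These were the fits without light plus ATR replicate 1, 2 or 4, light minus ATR replicate 1 or 2, dark plus ATR replicate 1, 2 or 4, or dark minus ATR replicate 2 or 3. It was also lost under ERCC scaling (adjusted p = 0.111) and without the filter on low counts (adjusted p = 0.0721). For lys-6 it was 0.50 (adjusted p = 0.135; 0.0387 without dark minus ATR replicate 2) and for ilys-3 0.28 (adjusted p = 0.747), neither of which was called in all libraries. Intestine marker scaling added lys-1 as lower (-0.39, adjusted p = 0.0147), and library totals added lys-8 as higher (0.20, adjusted p = 0.0459). The summed lys-4, lys-5 and lys-6 counts, which are mostly those of lys-4, gave 0.76 (adjusted p = 6.42e-07).

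Other antimicrobial genes were mixed. Of 6 further lysozyme genes, 2 had enough counts to be tested. Both were higher against light minus ATR (beside 8.39% of all tested genes), though only ilys-4 was called against all 3 controls. One is ilys-5, with 613, 616, 670 and 657 CPM in light plus ATR, against 530, 524, 548 and 536 CPM in light minus ATR (log2 fold change 0.26, edgeR, adjusted p = 0.000568). Against dark plus ATR ilys-5 was at 0.18 (adjusted p = 0.0084) and against dark minus ATR at 0.08, which was not called (adjusted p = 0.195). Between the controls, ilys-5 was at -0.18 in light minus ATR against dark minus ATR (unadjusted p = 0.00137, adjusted p = 0.157). The other is ilys-4, at 0.41 (adjusted p = 0.0063) against light minus ATR, 0.50 (adjusted p = 0.000762) against dark plus ATR and 0.53 (adjusted p = 0.000345) against dark minus ATR. Its libraries in light plus ATR had 5.81 to 7.48 CPM, and those in light minus ATR 4.74 to 5.41 CPM. ilys-6 had 0 counts in all 16 libraries, and lys-9 and ilys-1 had 0 in 8 libraries each.

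Among the caenopores, saposin-like proteins that permeabilise bacterial membranes, 15 of 23 genes (spp-1 to spp-23) were tested, of which 7 were higher and 3 lower against light minus ATR. Of all tested genes 8.39% were higher and 7.9% lower in this comparison. The median log2 fold change of the 15 caenopore genes was 0.18. spp-23 had 67.1, 66.1, 55.4 and 63.6 CPM in light plus ATR, against 21.7, 24.8, 29.2 and 28.4 CPM in light minus ATR (log2 fold change 1.28, edgeR, adjusted p = 1.88e-06). The log2 fold change was 1.12 for spp-2 (adjusted p = 5.93e-08) and 0.73 for spp-18 (adjusted p = 5.11e-08). Of 14 antibacterial factor (abf) and thaumatin-like (thn) genes, 5 were tested and 2 were higher, beside the same 8.39% of all tested genes. They were thn-1 at 0.83 (adjusted p = 1.36e-05) and thn-2 at 0.31 (adjusted p = 0.00062).

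Of 23 genes of the p38, insulin, DBL-1 and related pathways that regulate lysozymes and other immune genes, 3 were higher and none lower against light minus ATR (beside 8.39% of all tested genes higher). The median over the 23 was 0.09 on the log2 scale. These were the Smads of the DBL-1 pathway sma-2 (0.56, adjusted p = 0.000168) and sma-3 (0.31, adjusted p = 0.0228), and the beta-catenin bar-1 (0.22, adjusted p = 0.0296). Against dark plus ATR 6 of the 23 were higher and against dark minus ATR 10, with none lower, beside 16.2% and 20.4% of all tested genes higher.

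Tissue markers were counted in the same comparisons. Against light minus ATR these counts stand beside 8.39% of all tested genes higher and 7.9% lower. Of 13 intestine markers 4 were higher and 1 was lower against light minus ATR (median log2 fold change 0.15), and their summed CPM was 1622 to 1786 in light plus ATR, against 1458 to 1664 in light minus ATR, 1432 to 1497 in dark plus ATR and 1459 to 1626 in dark minus ATR. The lowest light plus ATR sum was below the highest light minus ATR and dark minus ATR sums. None of the intestine markers was at 0 in any library. The ion exchanger gene nhx-2 was higher (0.74, edgeR, adjusted p = 5.23e-09) and the gut esterase gene ges-1 lower (-0.35, adjusted p = 4.36e-05). Of 10 pharynx markers 9 were tested, 4 of them higher and 1 lower, with a summed CPM of 537 to 550 in light plus ATR, against 375 to 499.5 in light minus ATR, 398 to 461 in dark plus ATR and 373 to 461 in dark minus ATR. Their part in the values of the lysozyme genes was not tested. Scaled to the intestine markers, lys-3, lys-4 and lys-5 were called as higher against each control, while lys-6 was not called in any of these comparisons (0.28 against light minus ATR, adjusted p = 0.0915). This scaling shifts all genes together, to a median of -0.11 against light minus ATR, and is no test of the part of the intestine.

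Of the other marker lists, 8 of 10 body wall muscle and 5 of 12 neuron markers were higher and none lower against light minus ATR, while of 6 hypodermis markers 2 were lower and none higher, with 4 of the 6 at positive values that were not called (median log2 fold change of the list 0.54). Of 14 germline and oocyte and 8 sperm markers none was called in that comparison, but 8 of 14 and 10 of 14 germline and oocyte markers were lower against dark plus ATR and dark minus ATR, and 8 of 8 sperm markers were higher against each. Of all tested genes 11.6% were lower and 16.2% higher against dark plus ATR, and 16.5% lower and 20.4% higher against dark minus ATR. The summed CPM of the sperm markers was 202 to 322 in light plus ATR, against 159 to 221 in light minus ATR, 125 to 186 in dark plus ATR and 114 to 162 in dark minus ATR. The part of these shifts in the lysozyme values was not tested either.

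For the 5 members called against light minus ATR, the tested genes with the most similar profile were sought by the root mean square (RMS) difference of centred log2 CPM over the 16 libraries, whose replicates share conditions. Nearest to lys-4 were M60.4 (RMS 0.0543), B0379.1 (0.074) and the aspartic protease gene asp-3 (0.0742), where lys-4 itself had an RMS of 0.311 about its mean. The profile of lys-1 (own RMS 0.174) was closest to K09E2.3 (0.0639), the collagen gene col-20 (0.0727) and Y40H7A.10 (0.073). The nearest to lys-5 (own RMS 0.40) were nlp-70 (0.168), nhr-179 (0.17) and the cystathionine gamma-lyase gene cth-1 (0.171), and to lys-6 (own RMS 0.257) pqm-1 (0.128), flp-7 (0.131) and oig-2 (0.134). Nearest to lys-3 (own RMS 1.32) were F48C1.9 (0.511), Y39H10A.1 (0.595) and the tetraspanin gene tsp-1 (0.62). No lysozyme gene was among the 3 nearest of another.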

How the data were processed

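Whole-worm poly(A) RNA was sequenced from stranded TruSeq libraries with ERCC spike-ins. The authors processed the reads with the nf-core RNA-seq pipeline (STAR, salmon) on WBcel235 and deposited estimated counts per gene, without normalization. The combined table named for TPM holds the same estimated counts (largest difference 0). Counts of 46904 genes were rounded, and 92 ERCC sequences were kept for scaling only. Ensembl release 115 matched 46817 genes. In R 4.3.3, edgeR 4.0.16 (TMM, filterByExpr, robust quasi-likelihood F test, 1 coefficient per condition) tested 15044 genes in all 16 libraries, with Benjamini-Hochberg adjustment. It was tested on simulated data. Centred log2 CPM used a prior count of 2. Marker and pathway lists were described by counts only.

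Alternatives were DESeq2 1.42.0, RLE factors, library totals, ERCC scaling, TMM without germline and sperm markers, intestine marker scaling, no filter, a replicate block, only the compared groups, and each library left out. Limma-trend (limma 3.58.1) and summed lys-4, lys-5 and lys-6 counts were added after the data were seen. The members and lists were chosen with earlier results of these data known. All members are named, those called in any comparison with each library's value (lys-2 and lys-7 were added after their values were seen), with the 3 genes of smallest p per pathway list (intestine genes and ilys-6, ilys-2, lys-9 and ilys-1 were named afterwards) and 3 nearest genes per member called against light minus ATR. Sequences were not analysed here.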

Additional observations from a re-analysis of the deposited data

Results flagged for a closer look

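In the dark plus ATR condition, lys-3 had 1 library far from the other 3, with 1.01 CPM in replicate 3 against 0.274 to 0.354 CPM, a gap of 0.892 of the range of the group. In the same condition lys-8 had 144.7 CPM in replicate 1, against 151 to 152 CPM in the others, a gap of 0.901 of the range. Both pass the critical value of Dixon's test for 4 libraries at 95%, and of the 40 combinations of gene and condition examined about 2 would pass it by chance (1 in 20). The effect of ATR differed between light and dark on the log2 scale by 2.601 in lys-3, 0.766 in lys-4 and 1.042 in lys-5 (interaction test in edgeR, adjusted p = 0.0393, 7.97e-07 and 0.0016).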

How the results depend on the processing

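No gene called in the main setting changed direction, while lys-8 against dark plus ATR, not called there, was called at 0.11 under library totals and at -0.16 under intestine marker scaling. With each library left out, the number of lysozyme genes called against light minus ATR ranged from 3 to 6 (3 without light minus ATR replicate 3, where lys-1 and lys-6 were lost), from 5 to 6 against each dark control, from 2 to 3 for the interaction and 0 to 0 between controls. Over the other settings these counts were 4 to 6, 5 to 6, 5 to 6, 2 to 4 and 0 between controls. Of the values of called genes under these settings, 477 kept their call and 32 lost it, all of lys-1, lys-6 or the lys-3 interaction. The 477 include the summed counts of lys-5 and lys-6 and of lys-4, lys-5 and lys-6, entered once for each called gene in the sum. The sum of all 3 is mostly lys-4 and does not show whether lys-5 or lys-6 kept its call.

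The median log2 fold change of all genes, within 0.011 of 0 under TMM, was -0.11, -0.19, -0.14 and -0.17 under intestine marker scaling (3 light plus ATR comparisons and the interaction). Under ERCC scaling it was 0.05, 0.01 and 0.16 (the same 3 comparisons), 0.11 and 0.15 (controls) and -0.10 (interaction). Relative to the median of all genes, lys-6 was at 0.40, 0.48 and 0.40 under intestine marker scaling. All genes called against light minus ATR numbered 2450, 1334 under ERCC scaling and 4019 under intestine marker scaling.

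With the replicate block the counts were 5, 6, 6, 0, 0 and 3, with lys-1 called against dark plus ATR (adjusted p = 0.0223). It called 2791 of all genes against light minus ATR. The r of same-numbered libraries was -0.177 to 0.189 (median 0.057, against -0.029 for other numbers), with 6 of 24 pairs over 0.1. The numbers were not taken as pairs in the main fit, a choice that these values do not settle. Of the 16 libraries, 9 correlated best with their own number, a hint of shared deviations. The lowest counts per library were those of lys-10 (8 to 35) and lys-3 (3 to 122).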
